A study of Mus musculus with 2 samples.

Results

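The interleukin 1 (IL-1) family and its checkpoints were followed through gated immune cells from the lamina propria of the mouse colon, the tissue layer beneath its epithelium, as 8 genes of the 32285 in each matrix, chosen by symbol. They are the ligands Il1a, Il1b, Il18 and Il1f9 (IL-36 gamma), the receptor antagonist Il1rn, the decoy receptor Il1r2, and the inflammasome genes Nlrp3 and Casp1. All 8 were found once in each matrix. In the macrophages and the Csf3r-gated cells of the library labelled Runx3, Il1a was 4.48- and 4.97-fold and Il1b 3.03- and 3.09-fold lower than in the library labelled Runx3_fl. Il1rn and Nlrp3 were lower by 1.78- to 2.37-fold, and the largest log2 difference of Casp1 in these 2 classes was -0.24. Il1r2 was at log2 differences of -0.50 and -0.14 in these classes and 1.59-fold higher in conventional dendritic cells, cells that present antigen to T cells, where Il1rn and Nlrp3 were not lower beyond counting error.

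IL-1 alpha and IL-1 beta act on the same signalling receptor, Il1r1 with its partner Il1rap. Il1rn codes for a secreted protein that occupies this receptor without signalling, and Il1r2 for a receptor that captures the ligand and lacks a signalling domain. IL-1 beta and IL-18 are made as precursors. The sensor NLRP3 assembles an inflammasome in which caspase-1, the product of Casp1, is activated and cleaves both precursors. IL-1 alpha is active without this step, and IL-36 gamma signals through another receptor of the family. In the gut IL-1 beta comes largely from monocytes, macrophages and neutrophils, whereas IL-18 is known as a product of epithelium too.

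The study compared mice with both Runx3 alleles floxed that carry Lyz2-Cre (RUNX3 fl/fl-Lyz2-Cre), in which Cre acts in myeloid cells (macrophages, monocytes, granulocytes), with floxed littermates (RUNX3 fl/fl), so that both groups share the floxed allele. Each group had 1 library, made from colon cells pooled over young adult male mice by the study's account and described in the labels as cd11b+. The titles Runx3_fl and Runx3 do not state Cre, so the libraries go by their titles here and neither is given a genotype. With 1 library per group there was no test: the 95% intervals are exact for the counts and leave out any variation among mice or preparations.

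After the limits of 200 to 6000 genes and 15% mitochondrial UMIs (molecule counts), 11885 cells (Runx3_fl) and 8167 cells (Runx3) remained, with medians of 9573 and 5731 UMIs per cell, and 27 of the kept barcodes occurred in both. Levels are CPM, the UMIs of a gene scaled to a total of 1000000 for the summed UMIs of a gated class. The targeted gene did not follow the titles in 1 direction. Runx3 was at 157 CPM (144 to 172) in macrophages of the library labelled Runx3_fl and at 245 (225 to 266) in those of the library labelled Runx3, whereas in Ly6c2-gated cells it was at 258 and 225 CPM, a log2 difference of -0.20 (-0.29 to -0.11). Its log2 difference was 0.25 (0.14 to 0.35) in Csf3r-gated cells and 0.31 (0.21 to 0.41) in conventional dendritic cells. In the lymphocyte gates it was -0.42 (NK cells), 0.004 (T cells) and 0.34 (B cells). The deleted exons were not given in the sources used here, so whether their loss would lower 3′ counts is not known. Why Runx3 did not follow the titles was not tested. Xist, which is transcribed in female cells, was at 109 to 271 CPM in the 7 classes of the library labelled Runx3_fl and at most 0.398 CPM in the other, although the study describes male mice. The pools therefore differed in more than their titles, and the part of this in any difference was not tested.

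Cells were gated by 1 or more UMIs of a class marker, and a cell had to pass only 1 of the gates other than Ly6c2. The Ly6c2 gate took the cells with Ly6c2 that passed none of the other gates. Ly6c2 UMIs were thus allowed in every other class. The gates gave 254 and 276 macrophages (Csf1r and C1qa; here and below the library labelled Runx3_fl first), 910 and 455 conventional dendritic cells (cDC, Flt3), 1378 and 1448 Csf3r-gated cells, 1047 and 1713 Ly6c2-gated cells, 2838 and 389 T cells (Cd3e), 353 and 1243 B cells (Cd79a) and 1294 and 101 NK cells (Ncr1). The macrophage, T, B and NK gates were highest of the 7 classes in all their check markers in both libraries, and the cDC gate in 6 of 8 and 8 of 8. The other gates held mixtures. The Csf3r gate, meant for neutrophils, led all 8 neutrophil markers, but in both libraries many of its cells had few of them. Cells with 0 markers were 539 of 1378 and 118 of 1448, and cells with 1 to 3 were 337 and 937. The Ly6c2 gate led 0 of 7 monocyte markers in either library. These last gates are therefore named by their gene.

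The loci lie on 4 chromosomes of GRCm38. Il1a (chromosome 2, 129299610 to 129309972, minus strand) and Il1b (129364570 to 129371139, minus strand) are neighbours with 54597 bases between them, while Il1f9 (24186476 to 24193568) and Il1rn (24336853 to 24351494) lie far away on the plus strand of chromosome 2. Il1r2 is on chromosome 1 (40074079 to 40125231), Nlrp3 on chromosome 11 (59541568 to 59566956), and Casp1 (5298517 to 5307265) and Il18 (50554827 to 50581840) on chromosome 9, all on the plus strand. All are protein-coding. Il1a, Il1b, Il1r2 and Il18 each overlap an annotated gene on the opposite strand, of which Il1bos lies over Il1b, and Il1r2 also overlaps Gm37347 on its own strand. How the counting treated strand was not given in the sources used here.

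The 250 bases before the RefSeq start site are shown for the 3 members that were past 2-fold lower in Csf3r-gated cells, Il1a, Il1b and Nlrp3, and for Il1r2, which was not. All 8 members had an entry in the RefSeq promoter table of GRCm38.p6. Capitals mark matches, on either strand, to TGTGGT (RUNX), GAGGAA (PU.1), TTGCNNAA (C/EBP), TGANTCA (AP-1), TATAAA (the TATA box) and the NF-kB consensus.
Il1a (chr2:129309973-129310222, minus strand): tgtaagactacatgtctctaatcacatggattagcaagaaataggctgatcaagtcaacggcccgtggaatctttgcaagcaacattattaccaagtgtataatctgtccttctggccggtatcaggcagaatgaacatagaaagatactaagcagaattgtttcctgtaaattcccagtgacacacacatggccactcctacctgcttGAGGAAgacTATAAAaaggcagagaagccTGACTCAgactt
Il1b (chr2:129371140-129371389, minus strand): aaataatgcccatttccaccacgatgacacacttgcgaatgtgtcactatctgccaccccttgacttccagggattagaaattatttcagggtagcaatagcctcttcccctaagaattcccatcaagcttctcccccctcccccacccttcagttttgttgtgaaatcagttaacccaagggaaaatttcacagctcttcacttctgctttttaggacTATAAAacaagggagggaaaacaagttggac
Nlrp3 (chr11:59541319-59541568, plus strand): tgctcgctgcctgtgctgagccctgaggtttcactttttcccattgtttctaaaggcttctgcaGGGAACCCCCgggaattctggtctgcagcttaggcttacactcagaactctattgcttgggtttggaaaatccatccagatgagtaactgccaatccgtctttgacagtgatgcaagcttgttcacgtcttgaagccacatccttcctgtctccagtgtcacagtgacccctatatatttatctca
Il1r2 (chr1:40085843-40086092, plus strand): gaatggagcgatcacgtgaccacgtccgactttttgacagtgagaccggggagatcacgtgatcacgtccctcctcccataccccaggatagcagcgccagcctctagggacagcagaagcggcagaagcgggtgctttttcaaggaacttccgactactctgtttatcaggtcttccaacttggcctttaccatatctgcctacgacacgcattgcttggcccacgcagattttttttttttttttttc

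Il1a and Il1b each had TATAAA close to the start, beginning 32 and 31 bases before it, a motif present in 12.4% of the 32851 promoter windows searched. Il1a also had GAGGAA 41 and TGANTCA 12 bases before the start, found in 23.3% and 6.75% of windows. The Nlrp3 window shown had a single NF-kB match (5.93% of windows), and the Il1r2 window had no match to any of the 6 motifs. Nlrp3 had 2 windows, and the one not shown (59542436 to 59542685) had 3 matches to GAGGAA and no NF-kB match. TGTGGT, found in 14% of windows, occurred among the first windows of the 8 members only in that of Il18, and TTGCNNAA (9.56%) in none. A match is a description of the letters, and 3′ counts do not show which start site was used.

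Il1b, the ligand with the most UMIs, was highest in Csf3r-gated cells and macrophages of both libraries. In Csf3r-gated cells it was at 5728 CPM (5682 to 5774) and 1852 (1827 to 1877), in macrophages at 5144 (5065 to 5223) and 1698 (1644 to 1753), and in Ly6c2-gated cells at 2755 (2724 to 2786) and 1083 (1059 to 1107). The library labelled Runx3 was the lower in each of these 3 classes, by log2 differences of -1.63 (-1.65 to -1.61), -1.60 (-1.65 to -1.55) and -1.35 (-1.38 to -1.31). In cDC the levels were nearer each other, 1296 (1278 to 1315) and 974 (948 to 1000) CPM, with a log2 difference of -0.41 (-0.46 to -0.37). The order of the 4 classes was the same in both libraries, and no neighbouring intervals in it overlapped. Gates were also allowed to overlap, so that a cell counted in every gate it passed, except that macrophages stayed out of the Ly6c2 gate. The Ly6c2-gated log2 difference of Il1b then shrank to -0.38, past 2-fold no longer.

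Il1a, the ligand that needs no inflammasome, had the largest log2 difference of the members in macrophages and Csf3r-gated cells. It was at 404 CPM (382 to 426) and 89.3 (77.3 to 103) in macrophages, 4.48-fold lower in the library labelled Runx3, and at 573 (558 to 587) and 114 (108 to 121) in Csf3r-gated cells, 4.97-fold lower. Ly6c2-gated cells had 147 (140 to 154) and 47.1 (42.3 to 52.2) CPM, a log2 difference of -1.62. With gates allowed to overlap in the same way, this difference shrank to -0.87, past 2-fold no longer. In cDC Il1a was at 8.35 (6.94 to 9.95) and 8.62 (6.35 to 11.4) CPM, no higher than the 7.34 (5.39 to 9.76) and 8.39 (6.55 to 10.6) of B cells, which are not known as a source of this cytokine. Il1a transcripts in cDC were thus not distinguishable from background in either library.

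**Figure D1:**
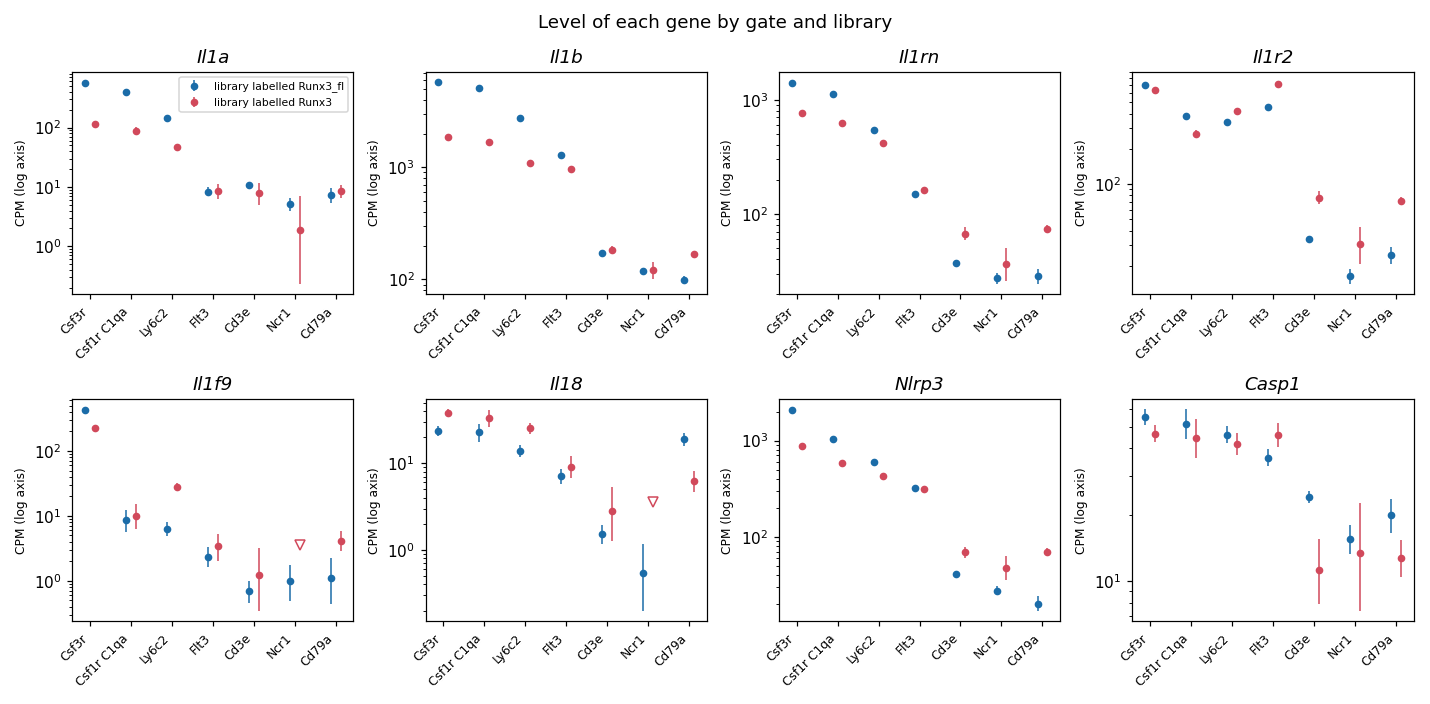
Level of each of the 8 genes (CPM, log axis) in the 7 gated classes, named by their gate genes, in the library labelled Runx3_fl (blue) and the library labelled Runx3 (red); bars are exact 95% intervals of the counts, and open triangles mark the upper limit where no UMI was counted. Il1b in macrophages is at 5144 and 1698 CPM, and Il1r2 in Flt3-gated cells is at 454 and 722.

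IL-18 and IL-36 gamma followed other patterns. Il18 was low everywhere, at 22.7 (17.7 to 28.6) and 32.9 (25.8 to 41.4) CPM in macrophages and 23.4 (20.5 to 26.5) and 38.1 (34.6 to 41.9) in Csf3r-gated cells, with a log2 difference of 0.68 (0.47 to 0.94) in the latter. In the library labelled Runx3_fl the intervals of Il18 in Csf3r-gated cells, macrophages and B cells overlapped from one to the next. Il1f9 was largely a gene of the Csf3r gate, which held 77.5% and 63.1% of its UMIs. It was at 427 (415 to 440) and 225 (216 to 234) CPM there, and at 8.50 (5.60 to 12.4) and 9.92 (6.22 to 15.0) CPM in macrophages. In Ly6c2-gated cells Il1f9 was 3.93-fold higher in the library labelled Runx3, with 1 CPM added to each level. It was at 27.98 (24.3 to 32.0) CPM against 6.38 (4.96 to 8.07). With a gate of 2 or more UMIs, however, the log2 difference of 1.97 became 0.59, short of 2-fold. The 8 neutrophil markers summed to 4104 CPM in these cells of the library labelled Runx3 and to 80.7 CPM in the other, where 1 of them was at 0, and all 8 were past 2-fold higher in the former, and the part of this in the Il1f9 difference was not tested.

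The antagonist was lower in macrophages and Csf3r-gated cells, by less than Il1b. Il1rn was at 1120 CPM (1084 to 1158) and 630 (597 to 663) in macrophages, with a log2 difference of -0.83 (-0.92 to -0.74), and at 1407 (1385 to 1430) and 763 (747 to 779) in Csf3r-gated cells, -0.88 (-0.92 to -0.84). In cDC it was at 150 (143 to 156) and 161 (151 to 172), and the interval of the log2 difference, -0.01 to 0.22, included 0. Of the UMIs of Il1rn and Il1b together, Il1rn made up 17.9% (17.4 to 18.4) in macrophages of the library labelled Runx3_fl and 27.0% (25.8 to 28.3) in those of the library labelled Runx3. In Csf3r-gated cells it made up 19.7% (19.4 to 20.0) and 29.2% (28.7 to 29.7), and in cDC 10.3% (9.94 to 10.8) and 14.2% (13.3 to 15.1). T cells, whose Il1b level was only 171 and 182 CPM, had 17.8% (17.0 to 18.6) and 27.0% (24 to 30.3), and B cells 22.3% (19.5 to 25.3) and 30.4% (28.4 to 32.5). The share was lowest in cDC of the 7 classes in each library.

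The decoy receptor had the opposite order between libraries in cDC. Il1r2 was at 454 CPM (443 to 465) in cDC of the library labelled Runx3_fl and at 722 (700 to 744) in those of the library labelled Runx3, a log2 difference of 0.67 (0.61 to 0.72). It stayed positive but was smaller where each cell was thinned to 2000 UMIs (0.39), where each cell had equal weight (0.33) and where a cell could count in every gate it passed (0.22). In macrophages it was lower, at 379 (358 to 401) and 268 (247 to 291), a log2 difference of -0.50 (-0.64 to -0.36), but the sign did not hold when macrophages with Csf3r or Flt3 UMIs were kept (0.03). Csf3r-gated cells were at 700 (684 to 717) and 634 (620 to 649). Il1r2 was the only member whose highest class changed, from the Csf3r gate in the library labelled Runx3_fl to cDC in the other, but with thinning, with equal weight per cell and with a gate of 2 or more UMIs the Csf3r gate was the highest in both. Within cDC thinned to 2000 UMIs per cell, the difference was not uniform. Cells with neither Xcr1 or Clec9a nor both Ccr7 and Fscn1 had 583 and 721 CPM, while cells with Ccr7 and Fscn1, genes of migrating dendritic cells, had 528 (435 to 635) CPM over 107 cells and 283 (165 to 454) over 30. The first group made up 618 of 894 and 365 of 421 thinned cDC, so the makeup of the gate differed too. Markers of other cell types were also higher in cDC of the library labelled Runx3. Of the 8 macrophage markers 5 were past 2-fold higher (105 and 305 CPM in sum), of the 7 monocyte markers 4 (1457 and 2301 CPM), and of the 7 neutrophil markers with enough UMIs 3, the list of 8 summing to 15.3 and 323 CPM. Ly6c2 was at 142 (136 to 148) and 685 (664 to 707) CPM. No marker of these 3 lists was at 0 in either library, and their part in the Il1r2 difference was not tested.

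The same split set the ligand apart from its antagonist inside the cDC gate. Il1rn was at 416 CPM (334 to 512) and 500 (337 to 714) in cells with Ccr7 and Fscn1, at 177 (154 to 202) and 177 (148 to 210) in the remaining cDC, and at 82.8 (55.0 to 120) and 57.7 (11.9 to 169) in cells with Xcr1 or Clec9a, genes of cross-presenting cDC. Il1b was at 1650 (1482 to 1831) and 833 (619 to 1099), at 1710 (1638 to 1785) and 992 (921 to 1067), and at 763 (673 to 862) and 596 (405 to 846) CPM in the same 3 groups. Thus the cells with Ccr7 and Fscn1 stood above the remaining cDC for Il1rn in both libraries, while their Il1b intervals overlapped those of the remaining cDC. In the library labelled Runx3 these cells numbered 30 and those with Xcr1 or Clec9a 26, so their levels are coarse.

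Nlrp3 was lower in Csf3r-gated cells and macrophages of the library labelled Runx3. It was at 2087 CPM (2060 to 2115) and 881 (864 to 899) in Csf3r-gated cells, 2.37-fold lower, and at 1040 (1005 to 1076) and 580 (549 to 613) in macrophages, 1.79-fold lower. In cDC it was at 319 (310 to 329) and 314 (300 to 329), with a log2 difference of -0.02 (-0.10 to 0.06). Casp1, the protease of the inflammasome, was at 51.3 (43.8 to 59.9) and 44.2 (35.9 to 53.9) CPM in macrophages and 55.1 (50.7 to 59.8) and 46.5 (42.6 to 50.6) in Csf3r-gated cells. Its macrophage log2 difference of -0.21 had an interval of -0.59 to 0.15, and the neighbouring classes of its order, Csf3r-gated cells, macrophages and Ly6c2-gated cells, overlapped in the library labelled Runx3_fl.

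In Ly6c2-gated cells the Il1a and Il1b differences lay between those of macrophages and cDC. Besides these ligands, the antagonist and the sensor were lower there in the library labelled Runx3, with Il1rn at 549 (535 to 563) and 417 (402 to 432) CPM and Nlrp3 at 605 (591 to 620) and 427 (412 to 442). Il1r2 was higher, at 336 (326 to 348) and 418 (403 to 432), and so was Il18, at 13.9 (11.7 to 16.3) and 25.2 (21.7 to 29.0). The makeup and depth of this gate differed too. Of the 8 macrophage markers 6 were past 2-fold higher (358 and 1007 CPM in sum) and 0 lower. Of the 7 NK markers 7 were past 2-fold lower (1387 and 201 CPM). The 2 erythroid markers summed to 0.555 and 299 CPM, and the median cell had 9493 and 2181 UMIs. The part of this in the member differences was not tested. The signs of Il1rn and Nlrp3 turned to log2 differences of 0.49 and 0.38 with overlapping gates, macrophages still left out of the Ly6c2 gate. Thinning left out 65 of 1047 and 810 of 1713 cells. Of the cells that remained, those with Csf1r, a receptor of monocytes and macrophages, had 4570 (4359 to 4787) and 1381 (1278 to 1491) CPM of Il1b, and those without it had 1961 (1893 to 2032) and 926 (875 to 979). Il1r2 differed the other way on both sides, by a log2 difference of 0.88 (0.54 to 1.24) with Csf1r and 0.20 (0.03 to 0.38) without it.

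**Figure D2:**
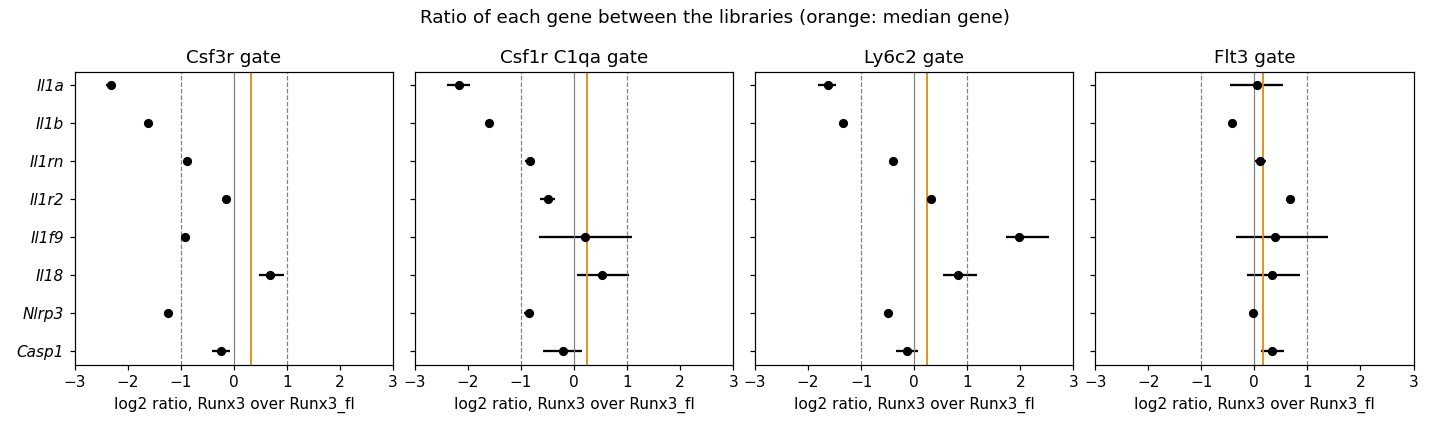
Log2 ratio of each gene, library labelled Runx3 over library labelled Runx3_fl, with exact 95% counting intervals, in Csf3r-gated cells, macrophages (Csf1r C1qa), Ly6c2-gated cells and cDC (Flt3); dashed lines mark 2-fold and the orange line the median gene of the class. Il1a lies at -2.31, -2.16, -1.62 and 0.04 in the 4 panels.

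Counted against all genes with at least 10 UMIs in a class, the members fell on the lower side. In Csf3r-gated cells 3 of 8 were at least 2-fold lower (Il1a, Il1b, Nlrp3) and 0 higher, where 2.50% of 14901 genes were lower and 13.6% higher. In macrophages 2 were lower (Il1a, Il1b) and 0 higher, against 3.53% and 15.5% of 11556 genes. In Ly6c2-gated cells 2 were lower (Il1a, Il1b) and 1 higher (Il1f9), against 2.27% and 14.8%. In cDC 0 of 8 passed 2-fold in either direction, against 1.88% lower and 9.14% higher. The median log2 difference of the members was -0.90 in Csf3r-gated cells and -0.66 in macrophages, beside 0.33 and 0.24 for all genes counted, and 0.22 in cDC, beside 0.16. Relative to this median gene, Il1rn and Nlrp3 in macrophages, at -0.83 and -0.84, were also past 2-fold lower. The median of genes with 50 CPM or more in either library was 0.05 in macrophages, and relative to it they were not.

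The lymphocyte gates were measured in the same way, and whether their UMIs were the cells' own was not tested. Il1b was at 171 (167 to 175) and 182 (168 to 197) CPM in T cells and at 98.8 (91.3 to 107) and 168 (159 to 177) in B cells. Past 2-fold, T cells had 1 member higher (Il1r2, 13.5% of genes higher) and 1 lower (Casp1, 7.26% lower). NK cells, in which 7 members had enough UMIs, had 0 higher (7.40%) and 1 lower (Il1a, 5.95%), from 57 and 2 UMIs. B cells had 4 higher (Il1rn, Il1r2, Il1f9 and Nlrp3, 20.0%) and 1 lower (Il18, 12.7%). The 4 higher members of B cells were at 73.3, 72.0, 4.13 and 70.3 CPM in the library labelled Runx3, where macrophages had 630, 268, 9.92 and 580. The B cell gate also held many plasma cell transcripts, its 3 plasma markers summing to 15681 and 7706 CPM. Of its 8 macrophage markers 7 were past 2-fold higher and 0 lower (80.9 and 419 CPM in sum). Its neutrophil markers summed to 12.5 and 292 CPM. The part of this in the member differences of the gate was not tested.

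By single cells, the difference of Il1b lay in how many UMIs a cell had more than in whether it had any. With each cell thinned to 2000 UMIs, which left out 6 and 50 macrophages and 108 and 267 Csf3r-gated cells, 91.5% (87.3 to 94.7) and 69.9% (63.5 to 75.8) of macrophages had an Il1b UMI, with 94.1% and 83.7% before thinning. The share in T cells was 8.11% (7.13 to 9.18) and 14.5% (11 to 18.6), below the macrophage shares in both libraries. Thinned macrophages with 10 or more Il1b UMIs made up 39.1% and 6.19%, and the median thinned macrophage had 7 and 2. Il1rn was found in 74.2% (68.3 to 79.5) and 51.3% (44.6 to 58.0) of thinned macrophages, Nlrp3 in 80.6% (75.2 to 85.4) and 58.0% (51.2 to 64.5), and Il1r2 in 35.5% (29.5 to 41.8) and 33.2% (27.1 to 39.7).

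**Figure D3:**
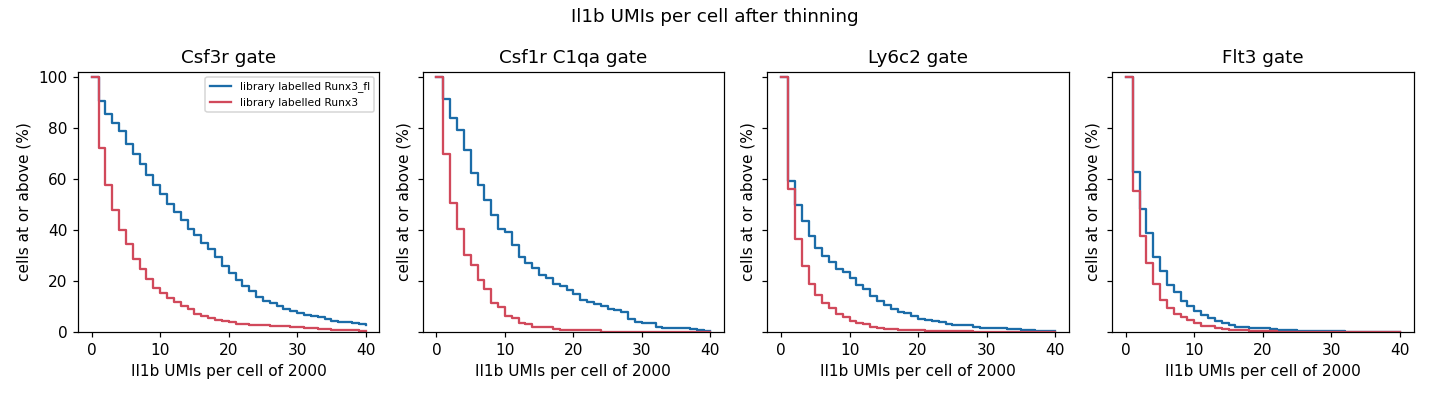
Share of cells (y axis, %) with at least the number of Il1b UMIs on the x axis, in cells thinned to 2000 UMIs, for 4 gates and both libraries (blue, Runx3_fl; red, Runx3). At 10 UMIs the macrophage curves stand at 39.1% and 6.19% and the Flt3 curves at 8.28% and 3.56%.

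Other genes moved with the macrophage difference. Lyz2, whose promoter drives the Cre, was at 2946 (2886 to 3006) and 969 (929 to 1011) CPM, and Nos2, the inducible nitric oxide synthase of activated macrophages, at 72.4 (63.4 to 82.4) and 9.02 (5.51 to 13.9). The 8 macrophage markers summed to 2621 and 5871 CPM, with 3 past 2-fold higher and 0 lower in the library labelled Runx3. The 7 monocyte markers summed to 2483 and 2659. The 8 neutrophil markers summed to 24.3 and 387 CPM, with 2 at 0 in the first library and 4 of the 6 with enough UMIs past 2-fold higher in the second. The part of this makeup in the member differences was not tested. The macrophages were also split by Ly6c2, a gene of freshly arrived monocytes. It was not particular to them here, at 565 and 498 CPM in T cells and 758 and 937 in B cells. Of the thinned macrophages, 100 of 248 and 143 of 226 had it. Thinned macrophages without Ly6c2 had 4125 (3897 to 4363) and 1199 (1038 to 1377) CPM of Il1b, and those with it had 5665 (5340 to 6005) and 1717 (1568 to 1876). Il1a was also lower on both sides, at 331 and 30.1 CPM without Ly6c2 and at 410 and 94.4 with it, whereas the log2 difference of Il1r2 was -1.09 (-1.63 to -0.58) without it and 0.46 (-0.10 to 1.05) with it. Thinned macrophages without a Nos2 UMI, 223 and 222 cells, had a log2 difference of -1.67 (-1.80 to -1.54) for Il1b. Those with one were 25 and 4 cells, with -0.29 (-0.86 to 0.23) for Il1b and 1.06 (-0.56 to 2.45) for Il1a.

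The makeup of the Csf3r gate differed between the libraries too. Its 8 neutrophil markers summed to 4845 and 40346 CPM, with 5 past 2-fold higher and 0 lower in the library labelled Runx3. Its 7 NK markers summed to 276 and 42.5 CPM, with 7 past 2-fold lower. The part of this makeup in the member differences of the gate was not tested. The Csf3r-gated cells were split by how many of the 8 neutrophil markers (among them S100a8, S100a9 and Cxcr2) a cell had. Cells with 0 markers had H2-Ab1, an antigen presentation gene, in 90.2% and 84.1% of thinned cells, and cells with 4 to 6 in 25.2% and 47.2%. Il1b was lower in the library labelled Runx3 at every step: 4138 (4014 to 4265) and 1483 (1308 to 1674) CPM at 0 markers, 6840 (6629 to 7056) and 1757 (1689 to 1826) at 1 to 3, and 8482 (8294 to 8674) and 4635 (4455 to 4820) at 4 to 6. Nlrp3 reached 5713 (5558 to 5871) and 3142 (2995 to 3295) CPM at 4 to 6 markers, and Il1f9 reached 1713 and 1373. Il1r2 there was at 1880 (1791 to 1971) and 2065 (1945 to 2189), a log2 difference of 0.14 (0.03 to 0.25), so the decoy receptor was not lower in these cells. At 1 to 3 markers it was, at 1263 (1173 to 1358) and 388 (357 to 422) CPM, a log2 difference of -1.70 (-1.86 to -1.54), where H2-Ab1 was found in 48.5% and 76.3% of cells. At 0 markers the Il1r2 interval included 0, with 304 (271 to 340) and 284 (211 to 375) CPM.

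Il1a and Il1rn followed Il1b through these steps, each lower in the library labelled Runx3. Il1a was higher in cells with more markers, up to 6, going from 322 (288 to 359) and 34.1 (12.5 to 74.2) CPM at 0 markers to 1096 (1029 to 1166) and 363 (314 to 418) at 4 to 6. The antagonist Il1rn was at 969 (910 to 1032) and 494 (396 to 610) CPM at 0 markers and at 2395 (2295 to 2498) and 1828 (1716 to 1946) at 4 to 6. Among cells with 4 to 6 markers the libraries were thus nearer each other for the antagonist than for Il1a.

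Cells with 7 or 8 neutrophil markers were 18 and 93 after thinning. In the library labelled Runx3, 60.2% of them had Ltf, a granule gene of immature neutrophils, against 5.56%. Il1b was at 7556 (6684 to 8509) and 1226 (1072 to 1396) CPM there, Il1a at 667 and 32.3, and Nlrp3 at 4583 and 683, while Il1r2 was at 1444 (1079 to 1894) and 2070 (1868 to 2287). In Csf3r-gated cells with 4 or more markers and under 3 summed UMIs of the granule genes Ltf, Camp and Ngp, the log2 difference without thinning was -1.84 for Il1a, -1.0 for Il1b and -1.03 for Nlrp3, smaller than in the whole gate for each of them. With thinning it was -1.63 for Il1a, -0.82 for Il1b and -0.83 for Nlrp3, so that only Il1a of these 3 stayed past 2-fold. These splits were drawn after the makeup of the gate had been seen, and detection of a marker depends on depth. Neutrophil markers were also counted in T cells, where S100a9 was at 6.03 and 130 CPM. The part of such UMIs in the number of markers per cell was not tested.

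**Figure D4:**
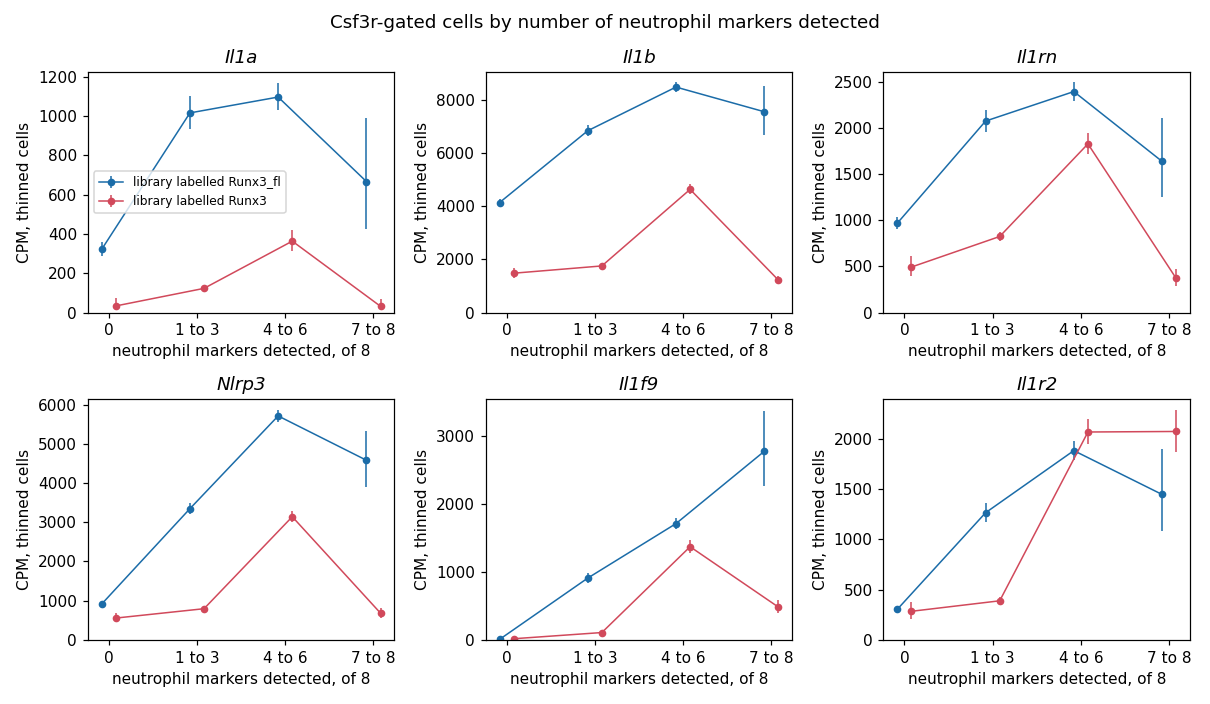
Level (CPM, in cells thinned to 2000 UMIs) of 6 genes in Csf3r-gated cells by the number of 8 neutrophil markers detected, for both libraries; bars are exact 95% intervals of the counts. Il1b is lower in the library labelled Runx3 (red) at each step, and Il1r2 reaches 2065 and 2070 CPM in the last steps.

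The gates held unequal shares of the UMIs of the members. Casp1 was spread over them, with 23.1% and 1.60% in T cells, 13.4% and 23.2% in the Csf3r gate and 12.6% and 11.3% in cDC. Il18 had 22.7% and 28.3% in the Csf3r gate and 14.1% and 12.5% in Ly6c2-gated cells. In the library labelled Runx3_fl the Csf3r gate held 42.4% of Il1a, 29.5% of Il1b, 33.6% of Il1rn, 39.2% of Nlrp3 and 24.8% of Il1r2 UMIs, and in the library labelled Runx3 it held 34.6%, 29.1%, 31.9%, 34.2% and 30.8%. Macrophages, the smaller class, held 8.14% and 5.25% of Il1b. Cells that passed several gates and were left out of every class held 26.2% and 41.4% of Il1b, so the class levels describe part of the transcripts. The cDC held 23.1% and 17.3% of Il1r2 but 0.887% and 1.29% of Il1a.

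**Figure D5:**
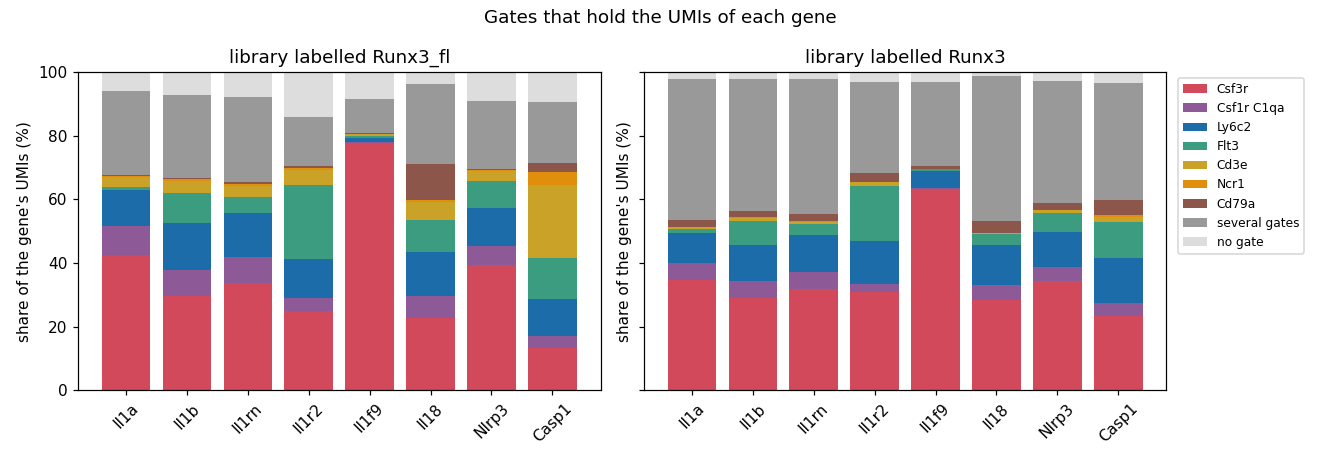
Share of each gene's UMIs (y axis, %) by gate in the library labelled Runx3_fl (left) and the library labelled Runx3 (right); colours are the gates, with cells of several gates and of no gate in grey. Il1f9 lies mostly in the Csf3r gate, at 77.5% and 63.1%.

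The wider pathway was counted in the same way. Of 37 genes of the IL-1 and inflammasome pathway, 34 were in the matrices. In macrophages 27 had enough UMIs, of which 2 were past 2-fold lower (Il18r1 and Il18rap) and 1 higher (Il33), beside 3.53% lower and 15.5% higher over all genes, with a median log2 difference of 0.13. In Csf3r-gated cells 31 did, with 0 lower and 4 higher (Il1rl1, Naip1, Naip5 and Naip6), beside 2.50% and 13.6% over all genes, and a median of 0.10. The receptor chains of macrophages were close between the libraries, with Il1r1 at 46.0 and 48.3 CPM, and Il1rap, the accessory chain, at 45.4 and 35.2. The IL-18 receptor chains were the lowest by ratio: Il18r1 was at 13.5 and 3.16 CPM, from 43 and 7 UMIs, and Il18rap at 27.1 and 5.86. These are transcripts of NK and T cells too. In these macrophages 5 of the 6 NK markers with enough UMIs were past 2-fold lower. Of the 6 T cell markers with enough UMIs, 4 were past 2-fold higher and 0 lower, the list summing to 37.2 and 77.1 CPM. The part of such cells in the Il18r1 and Il18rap differences was not tested. Il18bp, which binds free IL-18, was at 50.4 and 46.9 CPM, Pycard, the inflammasome adaptor, at 107 and 109, and Gsdmd, the pore protein, at 51.7 and 59.98. Traf6, a signalling ligase, was at 54.8 and 41.9, and the receptor kinases Irak1 and Irak4 were the highest by ratio of those with 10 or more UMIs in each library, at log2 differences of 0.68 (0.33 to 1.06) and 0.87 (0.46 to 1.34). Il33, a ligand of the family known from stromal and epithelial cells, had only 3 and 36 UMIs, at 0.945 and 16.2 CPM. The log2 difference was 3.15 with 1 CPM added to each level, and its interval, with nothing added, was 2.44 to 6.45. The 2 fibroblast markers summed to 7.87 and 20.3 CPM in the same macrophages, and their part in it was not tested.

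In Csf3r-gated cells Irak3, which restrains the signalling of this receptor family, was at 253 and 143 CPM, a log2 difference of -0.82 (-0.92 to -0.74), and Il1f6 (IL-36 alpha) at 6.67 and 3.20. Naip6, of the family of bacterial sensors, and Il1rl1, the IL-33 receptor, were the highest by ratio, at 8.70 and 20.3 and at 1.06 and 3.82 CPM, and Naip5 was at 15.4 and 34.7. Il1r1 was at 39.1 and 29.7, Il1rap at 128 and 88.5, Il18r1 at 14.1 and 8.53, Il18bp at 56.5 and 36.1, Pycard at 109 and 95.8, and Gsdmd at 40.8 and 46.6 CPM.

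Over the 14 levels of 7 classes by 2 libraries, the genes most like each member in log2 CPM were found among 5643 genes with 50 CPM or more in at least 1 of them. These levels share libraries and depth. Il1b was closest to Tnfaip2, Ptgs2 and Batf2 (Pearson r of 0.990, 0.988 and 0.988), and Il1a to Sod2, Inhba and Clec5a (0.977 each). Il1rn was closest to Clec4n, Fth1 and Ly6i (0.994, 0.992 and 0.991), Nlrp3 to Ptafr, Tnfaip2 and Tlr13 (0.996, 0.994 and 0.988), and Il1r2 to Ube2l6, Ifitm3 and Alpk1 (0.985, 0.982 and 0.979). Il1f9 was closest to G0s2, Asprv1 and Fpr1 (0.967, 0.966 and 0.966), of which G0s2 was a neutrophil check marker. The values for Il18 (Nceh1, Asph and Map3k20, 0.957, 0.951 and 0.948) and Casp1 (Atp6v1g1, Vamp8 and Gabarap, 0.967, 0.959 and 0.955) were lower.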

How the data were processed

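Single-cell RNA libraries of colon lamina propria were made with 10x Genomics chemistry. The authors deposited UMI count matrices of the barcodes called as cells, as whole numbers without normalization, made with Cell Ranger 7.1.0 per the file headers, with build mm10 and Seurat 4 in the submitters' processing notes. Total kept counts were 136381056 and 65556454 UMIs. The study's limits on genes and mitochondrial share were applied, and the upper limit and the removal of cells with several gates were the treatment of doublets.

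UMIs were summed per gate and library. Counts carry exact Poisson intervals, shares Clopper-Pearson intervals, and ratios exact conditional binomial intervals, all at 95%. Log2 ratios and the fold differences used CPM plus 1, and past 2-fold was counted among genes with 10 or more UMIs. The intervals of the ratios are for the counts with nothing added, so at low CPM a ratio and its interval are not of the same quantity. With 1 library per group no test was run. For shares of cells, each cell was thinned to 2000 UMIs, leaving out 616 and 1868 cells. The ratio step was tested on simulated data. The members and lists were chosen with earlier results of these data known. The named genes were the 8 members, the gate and check genes, Runx3, 6 pathway genes and the 2 highest and 2 lowest of the pathway list in macrophages and Csf3r-gated cells with 10 or more UMIs in each library, and the 3 genes most like each member; Il33, Naip1, Naip5, Lyz2, Nos2, Xist, Ltf, Camp and Ngp were added after their values were seen or as split genes. Coordinates are those of GENCODE M21. Scripts ran in Python 3.11.15 with scikit-learn 1.9.0, scipy 1.17.1, numpy 2.4.6 and pandas 2.3.3.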

Additional observations from a re-analysis of the deposited data

Results flagged for a closer look

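Over the macrophages, Csf3r-gated cells, Ly6c2-gated cells and cDC, the ratio between the libraries of 3 members lay above 0 in some classes and below 0 in others, with intervals that did not include 0. The lymphocyte gates did not enter this comparison. The difference between classes was not tested. Il1r2 had log2 ratios of -0.50 in macrophages, -0.14 in Csf3r-gated cells, 0.31 in Ly6c2-gated cells and 0.67 in cDC. Il1f9 had -0.92 in Csf3r-gated cells and 1.97 in Ly6c2-gated cells. Casp1 had -0.24 in Csf3r-gated cells and 0.33 in cDC.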

How the results depend on the processing

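The 8 alternatives fixed at the outset (a gate of 2 or more UMIs, overlapping gates, no cell filter, removal of 1130 and 534 simulated doublets, equal weight per cell, thinning, centring on the median gene, and 10 CPM added) and 3 chosen after seeing the data (macrophages with Csf3r or Flt3 UMIs kept, Csf3r-gated cells with neutrophil markers and few granule UMIs, Ly6c2-gated cells with Csf1r) gave 280 values of the 32 member ratios, of which 148 lay within the interval of the main value and 132 outside it. No ratio past 2-fold changed its sign, 18 of the 32 ratios kept 1 sign under every alternative run, and 5 of the 8 past 2-fold stayed past it: Il1a and Il1b in macrophages and Il1a, Il1b and Nlrp3 in Csf3r-gated cells. Where the restricted Csf3r gate was also thinned, Il1b and Nlrp3 fell short of it, at -0.82 and -0.83. In Ly6c2-gated cells Il1a went to -0.87 and Il1b to -0.38 with overlapping gates, which kept macrophages out of the Ly6c2 gate. Il1f9 went to 0.59 there with the gate of 2 UMIs. Centring on the median gene brought the members past 2-fold to 4 in macrophages (from 2) and 5 in Csf3r-gated cells (from 3), by construction, since the median gene lay at 0.24 and 0.33. The median of genes with 50 CPM or more in either library lay at 0.05 and 0.07, nearer no difference. In cDC the count went from 0 to 1 (Il18) with overlapping gates and to 2 (Il1f9 and Il18) with equal weight per cell, and the cause was not tested. The number of members with the same highest class in both libraries was 7, and 5 to 7 under the alternatives. No paired analysis was possible because each group had 1 library, and no library could be left out. All intervals cover counting error only.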
